A study of Homo sapiens with 12 samples.

Results

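The 10 genes described here encode the core proteins that act between the first signal of autophagy and the attachment of LC3 to the growing membrane. They are WIPI1, WIPI2, ATG2A, ATG2B, ATG9A, ATG5, ATG12, ATG16L1, ATG7 and ATG3, taken by symbol from a table of 19447 symbols, and all 10 were present. Messenger RNA was sequenced in 12 libraries of a cell culture model of imatinib resistance, 3 for each of 4 groups. K562 is an established human line from chronic myeloid leukemia that carries the BCR-ABL kinase, the target of imatinib (IM), and the K562 group was untreated. K562/IM is its derivative that grew under stepwise increases of imatinib and was kept in 5 µM of the drug. By their labels, K562+L and K562/IM+L are the same lines given lycorine, an alkaloid of the Amaryllidaceae plants, at 6 µM by the study's methods. The duration before RNA was taken is not given in the sources used here. Nothing states whether the 3 libraries of a group came from separate cultures, so the p-values measure only the spread between libraries, which may be technical.

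Total counts ran from 75093844 to 107344598 per library. The group labelled K562/IM+L has the code G2 in the sample labels and G6 in the study's drawings, and it is therefore named here by its label throughout. ABCB1, the drug efflux pump raised in the resistant line, lay at 21.9 to 25.8 CPM (counts scaled by library size) in K562/IM and at 1.68 to 1.86 CPM in K562. In K562+L it was higher than in K562, at 3.83 to 5.14 CPM. In the group labelled K562/IM+L it lay at 0.49 to 1.06 CPM, under the range of each of the other groups. At the protein level, the study's Western blots had P-gp, the product of ABCB1, lower in K562/IM cells given lycorine than in K562/IM. The summed level of 10 K562 and erythroid markers was 6146 to 8525 CPM in K562, 4173 to 4796 CPM in K562+L, 2842 to 3094 CPM in K562/IM and 33261 to 46722 CPM in the group labelled K562/IM+L. None of those 10 was at 0 in any group. In each group most of the sum was HBG1, HBG2 and HBZ. HBE1 alone went against the lower sum of K562/IM, with means of 544 CPM there and 97.6 CPM in K562. Of 5 T and B cell markers the sum stayed at or under 25.6 CPM in every library, most of it CD3D in K562/IM at 22.0 ± 0.869 CPM, and of 5 monocyte and macrophage markers at or under 0.644 CPM. In each group 1 or 2 genes of either list were at 0 in every library. The 5 fibroblast and epithelial markers summed to 183 to 279 CPM, most of it EPCAM and KRT19, which had group means of 46.3 CPM or more. The collagen genes COL1A2 and COL1A1 had means of 17.1 and 4.28 CPM in K562/IM, against 0.0164 and 0.484 CPM in K562, 0 and 0.550 CPM in K562+L and 0.0294 and 0.569 CPM in the group labelled K562/IM+L. The sources used here do not settle whether the 3 libraries labelled K562/IM+L are those samples, and every value of that group depends on it. Whether the marker differences have a part in the results on K562/IM and on the group labelled K562/IM+L was not tested.

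Autophagy encloses cytoplasm in a double membrane that fuses with the lysosome. The WIPI proteins bind the lipid phosphatidylinositol 3-phosphate on the nascent membrane, and WIPI2 recruits ATG16L1. ATG2A and ATG2B are rod-shaped proteins that transfer lipids into the membrane, and ATG9A is a lipid scramblase carried by small vesicles that seed it. ATG7 activates both ubiquitin-like modifiers of the pathway. It passes ATG12 by way of ATG10 to ATG5, and LC3 by way of ATG3 to phosphatidylethanolamine, and the ATG5 conjugate with ATG12 and ATG16L1 directs that last step.

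Start-site windows are shown for the WIPI pair, whose members differed most in response to lycorine in K562, and for ATG12 and ATG3, which were lower together in K562/IM. Each runs from 250 bases before to 30 bases after a RefSeq start (GRCh38.p14), 5′ to 3′ on the gene's strand. Capitals mark GGGCGG or its reverse complement in the WIPI windows and CACGTG in the ATG3 window, and the ATG12 window holds neither. The positions are chr17:68457467-68457746 on the minus strand for WIPI1 and chr7:5189983-5190262 on the plus strand for WIPI2. They are chr5:115841536-115841815 for ATG12 and chr3:112561933-112562212 for ATG3, both on the minus strand.
WIPI1: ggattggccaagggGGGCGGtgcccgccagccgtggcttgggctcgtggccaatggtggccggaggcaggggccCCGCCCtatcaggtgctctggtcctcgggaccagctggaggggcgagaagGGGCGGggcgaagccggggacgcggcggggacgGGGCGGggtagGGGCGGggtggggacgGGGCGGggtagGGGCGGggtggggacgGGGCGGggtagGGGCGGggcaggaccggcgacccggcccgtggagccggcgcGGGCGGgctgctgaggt
WIPI2: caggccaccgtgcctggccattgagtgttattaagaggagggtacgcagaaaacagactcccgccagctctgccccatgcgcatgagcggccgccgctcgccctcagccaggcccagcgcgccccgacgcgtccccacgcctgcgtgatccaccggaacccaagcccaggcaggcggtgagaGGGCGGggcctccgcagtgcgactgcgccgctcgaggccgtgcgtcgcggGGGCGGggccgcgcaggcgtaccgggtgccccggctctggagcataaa
ATG12: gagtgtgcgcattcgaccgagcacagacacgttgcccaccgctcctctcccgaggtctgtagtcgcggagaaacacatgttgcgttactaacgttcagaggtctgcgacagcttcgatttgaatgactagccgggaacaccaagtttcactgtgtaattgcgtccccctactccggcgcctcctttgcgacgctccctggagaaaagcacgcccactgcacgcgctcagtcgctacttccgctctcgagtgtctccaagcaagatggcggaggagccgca
ATG3: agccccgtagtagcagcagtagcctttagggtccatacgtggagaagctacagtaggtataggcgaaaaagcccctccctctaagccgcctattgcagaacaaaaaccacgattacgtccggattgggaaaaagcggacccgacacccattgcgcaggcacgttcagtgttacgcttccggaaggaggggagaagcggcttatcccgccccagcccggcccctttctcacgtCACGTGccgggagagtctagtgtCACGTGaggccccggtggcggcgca

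Motifs were searched on both strands in the 12 windows of 300 bases that RefSeq gives for the 10 genes, beside all 35116 windows. CACGTG, the E-box read by TFEB among other factors, occurred in 7.26% of all windows and among the members only in ATG3, at 2 places that begin at positions -18 and 6 from the start. TGATGNAAT, the composite element bound by ATF4, occurred in 0.991% of all windows and in none of the 12. GGGCGG, the GC box, was added after the sequences had been seen. It occurred in 45.0% of all windows, in a window of 9 of the 10 members (all but ATG12, and once in that of ATG3, where it is not capitalised), and 10 times in that of WIPI1, and 75 windows, or 0.214%, held at least 10. No motif of one kind overlapped one of another kind in the letters shown. Binding at these windows was not measured.

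Lycorine in K562 was followed by a fall of WIPI1 to 0.320 times its level.
WIPI1 (chr17:68420948-68457513, as all gene positions here in GRCh38) stood at 28.6, 27.5 and 29.9 CPM in K562 and at 8.42, 9.41 and 9.68 CPM in K562+L. All 3 treated libraries lay far under the untreated ones. The log2 fold change was -1.65 (SE 0.098, n = 3 against 3) with an adjusted p of 7.07e-05, by the quasi-likelihood test of edgeR, adjusted by Benjamini-Hochberg over all genes tested, which is the source of every adjusted p of a gene given here. A gene was called at an adjusted p under 0.05. In these bulk libraries a loss of cells that carry a transcript and a loss of transcript per cell cannot be told apart.

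The paralog WIPI2 (chr7:5190188-5233826) was not called. Its level was 73.8, 85.2 and 82.5 CPM in K562 and 83.8, 86.7 and 74.4 CPM in K562+L, so that the groups overlapped, with a log2 fold change of 0.02 (SE 0.098, adjusted p = 0.895). Within a library the count of WIPI1 was 0.323 to 0.388 times that of WIPI2 in K562 and 0.1005 to 0.130 times in K562+L. That ratio, which does not depend on scaling between libraries, differed by -1.67 on the log2 scale. The exact two-sided permutation test of 3 against 3 gave p = 0.1, the smallest it can give, and 0.133 after adjustment over 16 tests of ratios.

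ATG5 (chr6:106045423-106325791), the acceptor of ATG12, was lower as well. It measured 38.6, 42.4 and 42.3 CPM in K562 against 28.3, 29.8 and 35.2 CPM in K562+L, without overlap, and the log2 fold change was -0.40 (SE 0.107, adjusted p = 0.0216). ATG2A (chr11:64894546-64917248) was at 68.2, 72.7 and 68.3 CPM in K562 and at 62.7, 53.5 and 53.6 CPM in K562+L (log2 fold change -0.30, SE 0.095, adjusted p = 0.0382). Both calls were sensitive to the loss of a library, though not of any 1 in particular. Over all alternative fits the log2 fold change stayed at -0.50 to -0.34 for ATG5 and at -0.38 to -0.26 for ATG2A. ATG5 missed the threshold when K562 replicate 2, K562+L replicate 1 or K562+L replicate 2 was left out (adjusted p = 0.0833, 0.0806 and 0.0705), and ATG2A when K562 replicate 2 or 3 or K562+L replicate 2 or 3 was left out (adjusted p = 0.144, 0.0608, 0.122 and 0.132).

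In all, 3 of the 10 genes were called lower in K562+L and 0 higher. Of the 12927 genes tested, 19.0% were called lower and 18.2% higher, so that neither count can be read as particular to the group. WIPI1 was the 1 member that also passed a log2 fold change of 1, which 6.39% of all genes did in either direction. The other members had log2 fold changes between -0.18 and 0.26, namely -0.18 for ATG16L1 (adjusted p = 0.165), -0.17 for ATG7 (adjusted p = 0.228), -0.04 for ATG9A (adjusted p = 0.745), 0.03 for ATG12 (adjusted p = 0.802), 0.05 for ATG3 (adjusted p = 0.692) and 0.26 for ATG2B (adjusted p = 0.310). The median over the 10 was -0.11 and that over all genes tested was 0.00.

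**Figure D1:**
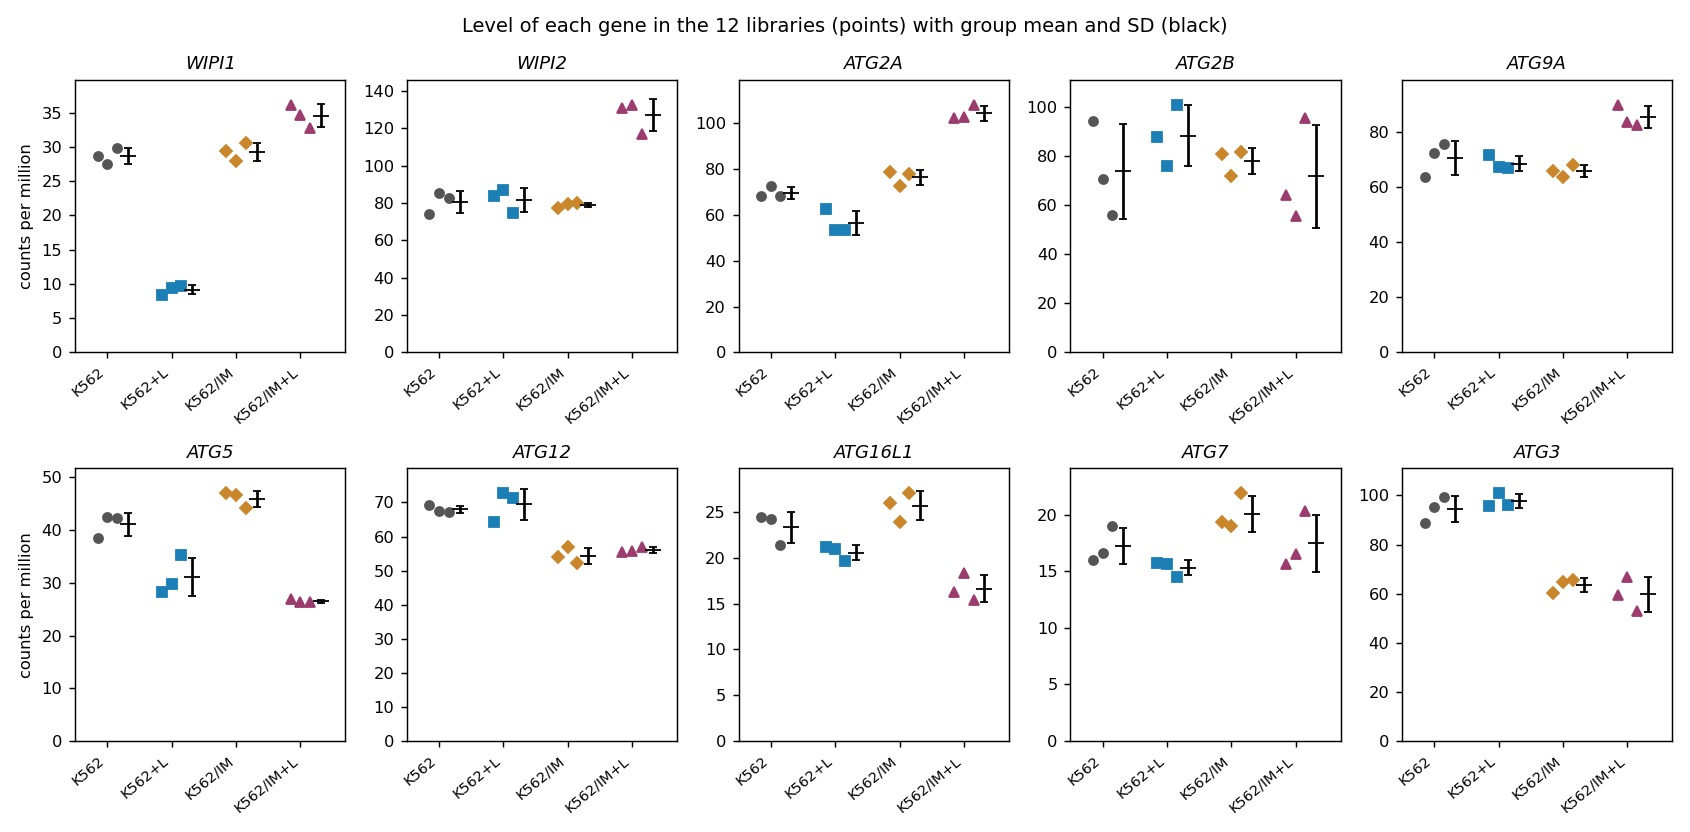
Level of each of the 10 genes in CPM (vertical axes from 0) in the 12 libraries by group, with points for libraries and black marks for the group mean and SD (n = 3). WIPI1 is low in K562+L alone, at 8.42 to 9.68, ATG12 and ATG3 are lower in both groups of the resistant line as labelled, and the ATG2B libraries of one group spread from 56.0 to 94.3.

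The resistant line differed from its parent in ATG12 and ATG3. K562/IM was kept in imatinib and K562 was untreated, so the line and its drug exposure cannot be told apart here. ATG3 (chr3:112532509-112562046), the enzyme that hands LC3 to its lipid, measured 88.9, 95.2 and 99.4 CPM in K562 and 60.4, 64.8 and 65.5 CPM in K562/IM. Every K562/IM library lay under every K562 library, and the log2 fold change was -0.57 (SE 0.075, adjusted p = 0.000482). ATG12 (chr5:115828200-115841858), the modifier joined to ATG5, was at 69.1, 67.4 and 67.3 CPM in K562 and at 53.9, 56.9 and 52.3 CPM in K562/IM, again without overlap (log2 fold change -0.32, SE 0.069, adjusted p = 0.00496).

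These were 2 of 10 members called lower, with 0 called higher, where 27.1% of 13406 genes tested were lower and 30.1% higher. No member passed a log2 fold change of 1, as 19.1% of all genes did. The 8 members not called had log2 fold changes from -0.10 (ATG9A, adjusted p = 0.330) to 0.22 (ATG7, adjusted p = 0.102). Both WIPI genes stood near their parental level, with 0.03 for WIPI1 (adjusted p = 0.751) and -0.03 for WIPI2 (adjusted p = 0.764). Without K562 replicate 1, ATG9A was called lower (log2 fold change -0.20, adjusted p = 0.0251), and without K562 replicate 3, ATG7 was called higher (0.29, adjusted p = 0.0428). By upper-quartile normalization ATG5 was called higher (0.21, adjusted p = 0.0472), where the main value was 0.16 (adjusted p = 0.105).

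Ratios within the conjugation genes were compared in the same libraries. Per library, the count of ATG5 was 0.558 to 0.630 times that of ATG12 in K562 and 0.819 to 0.872 times in K562/IM. ATG7, the enzyme that activates both modifiers, was at 0.174 to 0.191 times ATG3 in K562 and 0.293 to 0.334 times in K562/IM. The log2 differences were 0.48 and 0.79, each with the smallest exact p of 0.1 (0.133 after adjustment over the 16 tests).

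**Figure D2:**
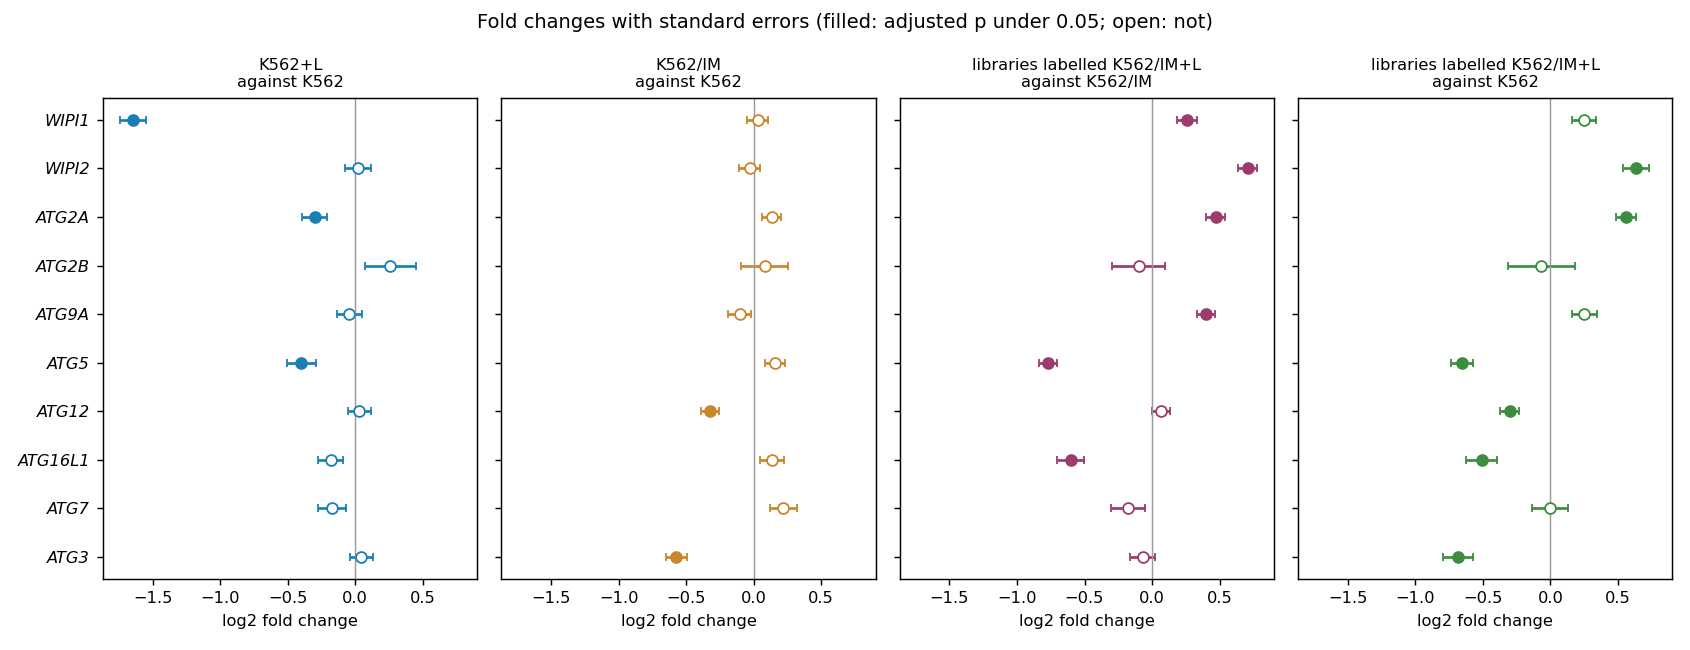
Log2 fold change of each gene (horizontal axes) in 4 comparisons, with bars for the standard error from 3 against 3 libraries, filled where the adjusted p was under 0.05. WIPI1 in K562+L is the 1 point beyond -1, and ATG5 is filled and left of 0 in 3 of the 4 panels.

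In the group labelled K562/IM+L WIPI2, ATG2A, ATG9A and WIPI1 were higher than in K562/IM, ATG5 and ATG16L1 were lower, and ATG2B, ATG12, ATG7 and ATG3 were not called. These were 4 of 10 members higher and 2 lower, where 33.2% of 13727 genes tested were higher and 33.6% lower, and no test sets one step of the pathway apart from another. WIPI2 measured 77.4, 79.4 and 79.9 CPM in K562/IM and 130.8, 132.7 and 117.1 CPM in the group labelled K562/IM+L (log2 fold change 0.71, SE 0.070, adjusted p = 9.13e-05). ATG2A measured 78.9, 72.8 and 77.9 against 102.1, 102.8 and 108.2 CPM (0.47, SE 0.069, adjusted p = 0.000628). Neither pair of groups overlapped.

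ATG9A (chr2:219219380-219229717) was at 65.7, 63.7 and 67.8 CPM in K562/IM and at 89.9, 83.5 and 82.6 CPM in the group labelled K562/IM+L (0.40, SE 0.067, adjusted p = 0.00135). WIPI1 was at 29.4, 28.0 and 30.6 against 36.2, 34.6 and 32.8 CPM (0.26, SE 0.075, adjusted p = 0.0171). The WIPI1 call was the least secure of the 4 higher genes. It was lost without K562/IM replicate 1, K562/IM replicate 2 or K562/IM+L replicate 1, at adjusted p = 0.0640, 0.0717 and 0.0634.

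ATG5 showed the largest fall among the members in this comparison. Its level was 47.0, 46.6 and 44.1 CPM in K562/IM and 26.9, 26.3 and 26.3 CPM in the group labelled K562/IM+L, or 0.578 times as much (log2 fold change -0.77, SE 0.065, adjusted p = 4.18e-05). ATG16L1 (chr2:233210051-233295674), the scaffold that binds the ATG5 conjugate, measured 26.0, 23.9 and 27.1 against 16.2, 18.3 and 15.4 CPM (-0.60, SE 0.097, adjusted p = 0.00105). ATG12 itself measured 53.9, 56.9 and 52.3 against 55.3, 55.7 and 57.0 CPM, with overlapping libraries (0.07, adjusted p = 0.394). The ratio of ATG5 to ATG12 counts thus went from 0.819 to 0.872 in K562/IM to 0.462 to 0.486 in the group labelled K562/IM+L, a log2 difference of -0.83 (exact p = 0.1, 0.133 after adjustment).

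None of the 10 passed a log2 fold change of 1, as 28.5% of all genes did. For ATG3 the log2 fold change was -0.07 (adjusted p = 0.536) and for ATG7 -0.18 (adjusted p = 0.253). ATG7 (chr3:11272309-11557665) measured 19.3, 19.0 and 21.9 CPM in K562/IM and 15.6, 16.5 and 20.3 CPM in the group labelled K562/IM+L, and without replicate 3 of the latter it was called lower (-0.30, adjusted p = 0.0209).

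Against untreated K562, the group labelled K562/IM+L was higher in WIPI2 (log2 fold change 0.63, adjusted p = 0.00132) and ATG2A (0.56, adjusted p = 0.000694). It was lower in ATG3 (-0.68, adjusted p = 0.00176), ATG5 (-0.65, adjusted p = 0.000573), ATG16L1 (-0.51, adjusted p = 0.00725) and ATG12 (-0.30, adjusted p = 0.00962). The same labelled libraries enter this comparison and the last, so the values stand side by side and are not independent. ATG3 and ATG12 were thus under K562 in both groups of the resistant line as labelled. ATG5 and ATG16L1 were called under K562 in the group labelled K562/IM+L and not in K562/IM, and both differed between those groups as given above.

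Of the 10 genes, 2 were called higher and 4 lower, where 28.2% of 13307 genes tested were higher and 27.8% lower, and 0 passed a log2 fold change of 1, which 23.8% of genes did. The split of all genes depended on the scaling, with 3753 higher and 3693 lower by TMM and 4564 higher and 2883 lower by upper-quartile normalization, which moved the median of all genes from 0.02 to 0.17. Relative to that median, ATG12 stood at -0.32 under both scalings and WIPI1 at 0.23 under both. By adjusted p, upper-quartile normalization lost ATG12 (0.108) and called WIPI1 (0.00741) and ATG9A (0.00992), which were at 0.0503 and 0.0560 by TMM with log2 fold changes of 0.25 each. Both were also called by DESeq2 (0.0222 and 0.0387), with at least 10 counts in every library (0.0366 and 0.0357), with counts divided by 4 (0.0385 and 0.0387) and in a fit of all 12 libraries (0.0111 and 0.00736), and WIPI1 also by RLE scaling (0.0427) and without K562/IM+L replicate 3 (0.0372).

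The lycorine effects of the lines, as labelled, were compared directly in a fit over all 12 libraries. The difference is the effect in K562/IM minus that in K562, on the log2 scale. It was 1.88 for WIPI1 (SE 0.113, adjusted p = 9.20e-08), whose level was lower in K562+L and higher in the group labelled K562/IM+L. ATG2A also had effects of opposite sign, -0.30 and 0.47, with a difference of 0.75 (SE 0.106, adjusted p = 8.13e-05). For WIPI2 the difference was 0.67 (SE 0.115, adjusted p = 0.000376) and for ATG9A 0.42 (SE 0.106, adjusted p = 0.00459). ATG5, called lower in both lines, had a difference of -0.39 (SE 0.121, adjusted p = 0.0145). ATG16L1, which was not called in K562+L, had one of -0.44 (SE 0.128, adjusted p = 0.00979).

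These 6 of 10 genes, 4 with a higher and 2 with a lower difference, stand beside 29.9% of 13995 genes with a higher and 31.7% with a lower one. The ATG5 difference was not called under upper-quartile normalization (-0.26, adjusted p = 0.0809), which moved the median of all differences from -0.02 to 0.11. For ATG12, ATG7 and ATG3 the differences were 0.01, -0.03 and -0.14 (adjusted p = 0.926, 0.889 and 0.344).

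**Figure D3:**
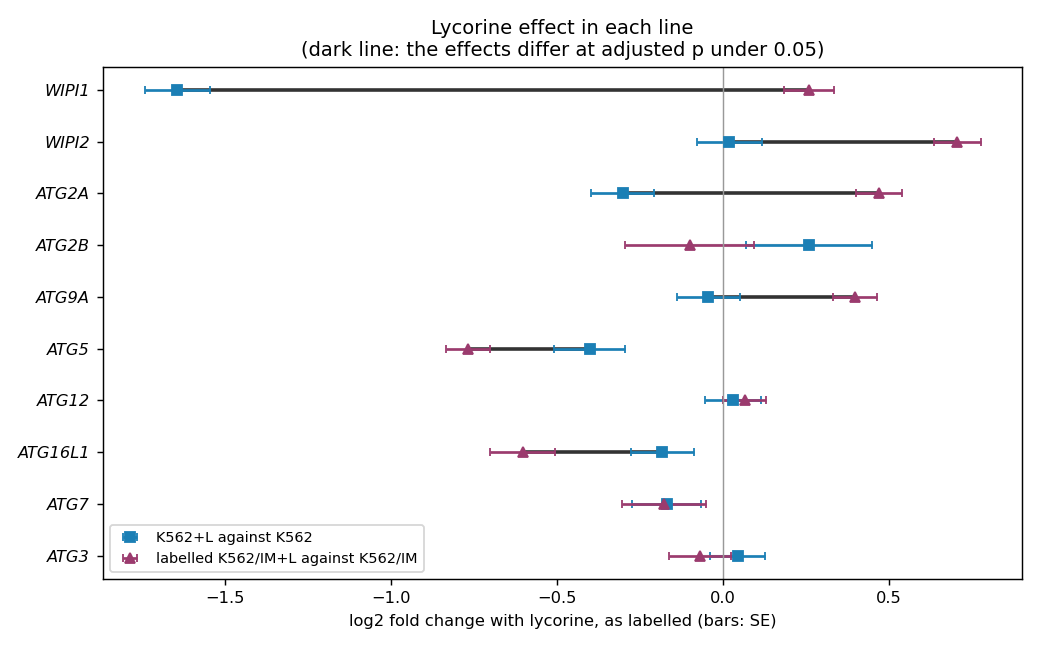
Log2 fold change with lycorine, as labelled, in K562 (squares) and in K562/IM (triangles), with standard errors, and a dark line between them where the 2 effects differed at an adjusted p under 0.05. The line for WIPI1 runs from -1.65 to 0.26, that for ATG5 from -0.40 to -0.77, and the points for ATG12, ATG7 and ATG3 lie close together.

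ATG2B (chr14:96279202-96363870) was the least reproducible of the members. It measured 94.3, 70.8 and 56.0 CPM in K562, 87.9, 76.1 and 101.0 CPM in K562+L, 80.8, 72.1 and 81.6 CPM in K562/IM and 64.0, 55.6 and 95.6 CPM in the group labelled K562/IM+L. All 4 groups overlapped and no comparison was called. In some of the comparisons, though not in all, the outcome depended on a single library. Without K562 replicate 1, ATG2B was called higher in K562+L (log2 fold change 0.47, adjusted p = 0.0322), and without K562/IM+L replicate 3 it was called lower than in K562/IM (-0.36, adjusted p = 0.00695), with a difference between the lines of -0.65 (adjusted p = 0.0417).

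The longest annotated transcript of ATG2B has 13684 bases, the most among the 10. ATG2B is itself among the 1441 genes whose longest transcript has at least 8000 bases. The share of counts on those genes, a measure added after the data had been seen, was 8.81%, 7.32% and 6.27% in K562 replicates 1 to 3. It was 10.1%, 8.92% and 10.8% in K562+L, 10.6%, 10.1% and 10.6% in K562/IM, and 6.30%, 5.93% and 8.56% in the group labelled K562/IM+L. Within every group the library with the highest share had the highest ATG2B and that with the lowest share the lowest. Its part in the ATG2B levels was not tested. For ATG2A, with a longest transcript of 6357 bases, the order within groups differed from that of the share. The ATG2A to ATG2B ratio was 0.531 to 0.713 in K562+L against 0.723 to 1.22 in K562, and 1.13 to 1.85 in the group labelled K562/IM+L against 0.955 to 1.01 in K562/IM, each with an exact p of 0.1 (0.133 after adjustment).

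**Figure D4:**
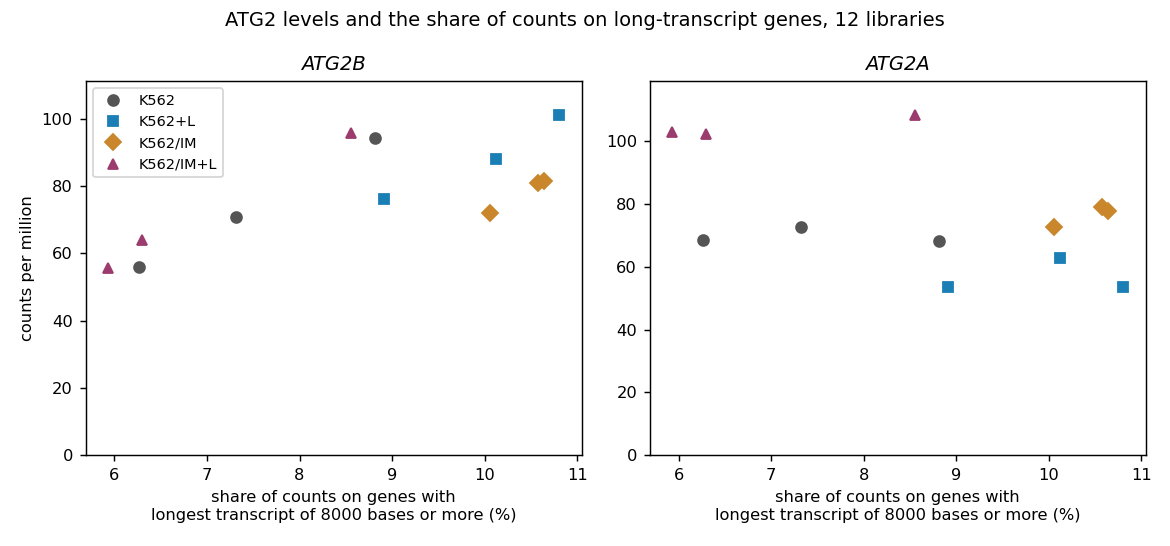
CPM of ATG2B (left) and ATG2A (right), with vertical axes from 0, against the percent of a library's counts on genes with a longest transcript of at least 8000 bases, for 12 libraries marked by group. ATG2B runs from 55.6 at a share of 5.93% to 101.0 at 10.8%, and ATG2A is highest, at 102.1 to 108.2, in the group labelled K562/IM+L.

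**Figure D5:**
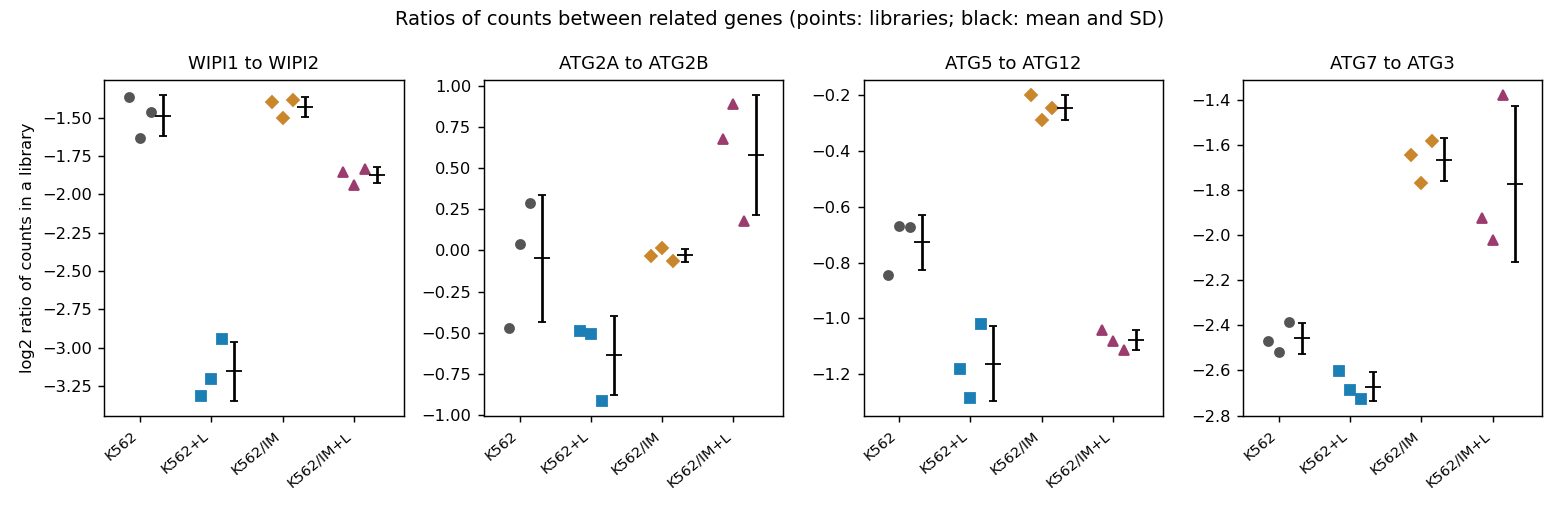
Log2 ratio of the counts of related genes within each library (vertical axes), by group, with points for libraries and black marks for the mean and SD (n = 3). The WIPI1 to WIPI2 ratio is lowest in K562+L, at -3.32 to -2.94, and the ATG5 to ATG12 ratio is highest in K562/IM, at -0.29 to -0.20.

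The order of the 4 groups differed from gene to gene. WIPI1 ran from the group labelled K562/IM+L through K562/IM and K562 to K562+L, and only K562/IM and K562 were neighbours that did not differ (adjusted p = 0.751). WIPI2 was highest in the group labelled K562/IM+L, above K562+L (adjusted p = 0.000676), and K562+L, K562 and K562/IM were not called apart from their neighbours. ATG2A had the same order as WIPI1, again with K562/IM and K562 not called apart (adjusted p = 0.144), although their libraries did not overlap. ATG9A ran from the group labelled K562/IM+L through K562 and K562+L to K562/IM with no pair of neighbours called. ATG5 ran from K562/IM through K562 and K562+L to the group labelled K562/IM+L, where only K562 and K562+L differed at the threshold (adjusted p = 0.105, 0.0216 and 0.0536 in turn). ATG16L1 had that same order, with only the lowest step called, between K562+L and the group labelled K562/IM+L (adjusted p = 0.0156). ATG12 and ATG3 were higher in K562+L and K562 than in both groups of the resistant line as labelled, and only the step between those pairs was called. For ATG2B and ATG7 no neighbours differed.

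Levels of different genes were compared as CPM per kilobase of the longest transcript. In K562 ATG3 had the highest level, 31.4 ± 1.76 (SD, n = 3), followed by WIPI2 at 18.0 ± 1.33 and ATG9A at 17.5 ± 1.54, and ATG7 had the lowest, 3.47 ± 0.319. In the group labelled K562/IM+L the highest was WIPI2, 28.3 ± 1.90, followed by ATG9A at 21.2 ± 0.989. In K562+L WIPI1 stood at 4.86 ± 0.354, the ninth of the 10. With the summed exon length in place of the longest transcript, ATG9A rather than WIPI2 was highest in the group labelled K562/IM+L (18.1 against 14.1), and ATG9A rather than ATG3 in K562/IM (13.9 against 10.4). ATG7 was lowest in all 4 groups by either length.

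Exons of 5 members overlap those of a gene on the other strand in GENCODE release 29, and whether counting used strand is not given in the sources used here. Those are 828 bases between WIPI1 and ARSG, 419 between ATG2B and GSKIP, 378 between ATG12 and AP3S1, 1596 between ATG7 and VGLL4 and 151 between ATG3 and SLC35A5. ARSG lay at 3.72 ± 0.782 CPM in K562 and 2.22 ± 0.121 CPM in K562+L, under WIPI1 in both groups, and it was also called lower in K562+L (log2 fold change -0.74, adjusted p = 0.0222). From K562/IM to the group labelled K562/IM+L it rose to 6.17 ± 0.853 CPM (1.06, adjusted p = 0.00465), where WIPI1 went from 29.3 to 34.6 CPM. AP3S1 was lower in K562+L (log2 fold change -0.43), where ATG12 stood at 0.03, and SLC35A5 was higher there (0.72), where ATG3 stood at 0.05. GSKIP was lower there too (-0.65), where ATG2B stood at 0.26, and VGLL4 was lower in K562/IM (-0.57), where ATG7 stood at 0.22. In K562/IM against K562, AP3S1 had a log2 fold change of -0.38 (adjusted p = 0.00321), where ATG12 stood at -0.32. SLC35A5 had -0.29 in that comparison (adjusted p = 0.133), where ATG3 stood at -0.57. ATG9A shares 1833 exon bases with a gene model on its own strand that was not analysed here. The part of these genes in the values of the members was not tested.

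Except in K562+L against K562, the 10 paralogs and partners of these genes had a wider range of change than the members. In K562+L their log2 fold changes ran from -0.50 (TMEM41B) to 0.56 (ATG16L2), beside -1.65 to 0.26 for the members. In K562/IM against K562 the highest after ATG16L2 was ZFYVE1 at 0.78. ATG16L2, the paralog of ATG16L1, was at 0.322 ± 0.0998 CPM in K562, 0.474 ± 0.165 CPM in K562+L, 13.2 ± 0.619 CPM in K562/IM and 1.15 ± 0.221 CPM in the group labelled K562/IM+L. Its log2 fold change was 5.34 in K562/IM against K562 (SE 0.215, adjusted p = 1.74e-06) and -3.50 in the group labelled K562/IM+L relative to K562/IM (SE 0.165, adjusted p = 2.57e-06). ATG16L1 had 0.14 (adjusted p = 0.231) and -0.60 in these comparisons. The counts behind ATG16L2 in K562 were 25, 36 and 18.

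ATG10, the enzyme that transfers ATG12 to ATG5, was at 24.2 ± 1.58 CPM in K562, 18.8 ± 0.581 CPM in K562+L, 25.7 ± 1.19 CPM in K562/IM and 37.6 ± 1.70 CPM in the group labelled K562/IM+L. It was lower in K562+L (log2 fold change -0.36, adjusted p = 0.0171) and higher in the group labelled K562/IM+L than in K562/IM (0.57, adjusted p = 0.000355), where ATG5 was lower. VMP1, a scramblase of the endoplasmic reticulum, was at 110 ± 2.43 CPM in K562 and 177 ± 4.57 CPM in K562/IM (0.69, adjusted p = 9.18e-05), and at 76.6 ± 2.59 CPM in the group labelled K562/IM+L (-1.18 against K562/IM, adjusted p = 5.47e-06). TMEM41B, a scramblase of the same membrane, went the other way, from 82.6 ± 6.65 CPM in K562/IM to 124 ± 2.60 CPM (0.61, adjusted p = 0.000321).

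ATG9B, the paralog of ATG9A, had means of 0.885 to 1.22 CPM in 3 groups and was at 2.80 ± 0.342 CPM in the group labelled K562/IM+L (1.46 against K562/IM, adjusted p = 0.000942). TECPR1, which binds the ATG5 conjugate, rose from 22.7 ± 1.53 to 45.3 ± 1.13 CPM between the same groups (1.02, adjusted p = 2.63e-05). ZFYVE1, a marker of the membrane from which autophagosomes form, rose from 13.8 ± 0.741 to 21.3 ± 0.143 CPM (0.64, adjusted p = 0.000362), and RAB33B, which binds ATG16L1, from 8.85 ± 0.562 to 14.6 ± 1.58 CPM (0.74, adjusted p = 0.000997). The other WIPI family members, WDR45 and WDR45B, had log2 fold changes of 0.31 (adjusted p = 0.0235) and 0.06 (adjusted p = 0.476) in that comparison. In K562+L against K562 they had -0.31 (adjusted p = 0.0638) and -0.27 (adjusted p = 0.0259), beside -1.65 for WIPI1. Of the 10 paralogs and partners, 0 were called higher and 4 lower in K562+L, 3 higher and 0 lower in K562/IM against K562, 7 higher and 2 lower in the group labelled K562/IM+L relative to K562/IM, and 8 higher and 1 lower against K562. Over all genes tested the shares were 18.2% higher and 19.0% lower, 30.1% and 27.1%, 33.2% and 33.6%, and 28.2% and 27.8% in the same order of comparisons.

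Across all 52 other autophagy genes listed, 49 were tested in each comparison. In K562+L 7 were higher and 12 lower, beside 18.2% higher and 19.0% lower over all genes tested. In K562/IM against K562 15 were higher and 6 lower, beside 30.1% and 27.1%. In the group labelled K562/IM+L 28 were higher and 10 lower than in K562/IM, and 26 higher and 6 lower than in K562. Relative to K562, 28.2% of all genes tested were higher and 27.8% lower. The median log2 fold changes of the 49 were 0.02, 0.10, 0.34 and 0.35, beside 0.00, 0.04, -0.01 and 0.02 over all genes tested. In the comparison with K562/IM, where 33.2% of all genes tested were higher and 33.6% lower, 5 of 11 tested genes of the initiation and class III PI3K complexes were higher and 3 lower. Of the ATG8 family and ATG4 proteases 6 of 9 were higher and 1 lower, of the cargo receptors 4 of 5 higher and 0 lower, of the genes for fusion with the lysosome 4 of 8 higher and 2 lower, and of the transcription factors of autophagy genes 2 of 6 higher and 2 lower.

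Outside the paralogs and partners, FOXO3, a transcription factor of autophagy genes, and SQSTM1, the cargo receptor p62, were the genes past a log2 fold change of 1 in K562+L, at 1.29 (adjusted p = 0.000492) and 1.23 (adjusted p = 0.000173). In the group labelled K562/IM+L relative to K562/IM, the cargo receptor OPTN was at 1.72 (adjusted p = 1.33e-06), GABARAP of the ATG8 family at 1.19 (adjusted p = 9.57e-05) and TFEB at -1.19 (adjusted p = 0.000628). ULK1, the kinase that starts autophagy, was at 1.13 (adjusted p = 1.16e-05) and the protease ATG4D at 1.12 (adjusted p = 5.19e-05). The cargo receptor NBR1 was at 1.08 (adjusted p = 4.81e-05) and ATG14, of the class III PI3K complexes, at 1.06 (adjusted p = 1.61e-05). Against K562, ULK1 was at 1.91 (adjusted p = 9.24e-06), OPTN at 1.73 (adjusted p = 1.30e-05) and TFEB at -1.03 (adjusted p = 0.00141). ATG14 was at 1.06 (adjusted p = 0.000202) and NBR1 at 1.01 (adjusted p = 0.000193). Of the conjugation genes, ATG3, ATG5, ATG16L1 and ATG12 were called lower there and ATG7 was not called. ATG10, which transfers ATG12 to ATG5, was higher (0.61, adjusted p = 0.00133). Over all genes tested, 28.2% were higher and 27.8% lower.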

How the data were processed

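Messenger RNA of 12 libraries was measured, after poly(A) enrichment per the labels. The authors deposited whole-number counts per gene symbol and library, without normalization. Per the labels, FastQC, STAR, StringTie and DESeq2 were used with hg38, and versions, annotation and strand setting are not given in the sources used here. Of the values from 1 to 25, 67.9% were a multiple of 4 or exceeded one by 1, where evenly spread whole numbers would give 52%. Low counts need not be evenly spread and the value 1 was included, so this excess does not establish a step of 4. Counts divided by 4 were therefore only an alternative. Libraries were grouped by their treatment labels.

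Counts of the 6 libraries of each comparison were filtered (filterByExpr, minimum count 10), scaled by TMM and fitted with edgeR 4.0.16 (R 4.3.3) by the quasi-likelihood test, with Benjamini-Hochberg adjustment over all genes tested. The difference of the lycorine effects used all 12 libraries. CPM used TMM factors over the 12. Ratios of counts were compared with exact permutation tests (scipy 1.17.1), which cannot give a p under 0.1 with 3 against 3. The fits were also run on simulated counts in which few genes changed, as a check of the code. That does not test the scaling where many genes change, as here.

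The members and gene lists were chosen with earlier results of these data known. All members are named, and of the other autophagy genes the paralogs and partners. Genes past an adjusted p of 0.05 and a log2 fold change of 1 are named as well, beyond the planned 3 in each direction and comparison. For the 2 members with the widest range of group means, the 3 genes most alike are named. ABCB1 was the check of the resistant line.

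Alternatives were DESeq2 1.42.0, upper-quartile and RLE scaling, no filter, at least 10 counts in every library, counts divided by 4, one fit over all 12 libraries, a replicate block, a fold threshold, library totals, the summed exon length, and each library left out. Positions came from GENCODE release 29 (GRCh38, the build of the labels), which matched 19029 symbols, and start-site windows from RefSeq (GRCh38.p14), which matched all 10 members. Protein sequences were not used here.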

Additional observations from a re-analysis of the deposited data

Results flagged for a closer look

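For 6 of the 10 genes the lycorine effect differed between the lines, as labelled, in the test of the difference itself over all 12 libraries (edgeR's quasi-likelihood test, effect in K562/IM minus effect in K562, log2 scale). Of all 13995 genes tested, 29.9% had a higher and 31.7% a lower difference, so that 6 of 10 is close to that background. The difference was 1.88 for WIPI1, which was lower in 3 of 3 K562+L libraries than in K562 and higher in 3 of 3 libraries labelled K562/IM+L than in K562/IM. It was 0.75 for ATG2A, with the same directions in 3 of 3 libraries each. For WIPI2 it was 0.67 and for ATG9A 0.42, where the groups overlapped in K562 and did not in the other line. For ATG5 it was -0.39, with lower levels in both lines, and for ATG16L1 -0.44. These values rest on the group labelled K562/IM+L, whose ABCB1 level of 0.49 to 1.06 CPM lay under that of K562/IM at 21.9 to 25.8 CPM.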

How the results depend on the processing

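Of 23 calls of members over the 5 tests, 18 kept their direction and their side of the threshold under every alternative fit. The exceptions were ATG2A and ATG5 in K562+L, WIPI1 in the group labelled K562/IM+L relative to K562/IM, ATG12 in that group relative to K562, and the difference for ATG5. A log2 fold change over 1 left 1 call in K562+L against K562, and 0 in K562/IM against K562, 0 in the group labelled K562/IM+L relative to K562/IM and 0 against K562. With single libraries left out, the calls in K562+L against K562 ran from 1 to 4. The genes called among all genes were then 2871 to 5823, and 3126 with the replicate block, against 4821. Same-numbered libraries had correlations of their deviations from the group mean between -0.23 and 0.08. With 3 libraries a group, these cannot settle whether the replicate numbers pair the libraries. The replicate block left 2 member calls in K562+L, 2 in K562/IM, 6 in the group labelled K562/IM+L relative to K562/IM, 5 against K562 and 6 in the difference of effects, and lost ATG2A (adjusted p = 0.113) and ATG12 (adjusted p = 0.0797).

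Only members that were not called changed sign. By upper-quartile scaling these were WIPI2 and ATG12 in K562+L (-0.025 and -0.014), WIPI2 in K562/IM (0.019), ATG2B and ATG7 in the group labelled K562/IM+L relative to K562 (0.088 and 0.15) and the difference for ATG7 (0.098). ATG7 against K562 was 0.0080 by DESeq2, 0.0076 by RLE, 0.025 with at least 10 counts in every library, 0.018 with counts divided by 4 and 0.022 with all 12 libraries in the fit. With single libraries left out the ranges were, in K562+L, -0.049 to 0.082 for WIPI2, -0.12 to 0.0086 for ATG9A, -0.0034 to 0.084 for ATG12 and -0.0063 to 0.084 for ATG3. In K562/IM they were -0.0027 to 0.064 for WIPI1, -0.12 to 0.013 for WIPI2 and -0.089 to 0.27 for ATG2B. In the group labelled K562/IM+L relative to K562/IM they were -0.36 to 0.055 for ATG2B and -0.16 to 0.013 for ATG3, and against K562 they were -0.32 to 0.15 for ATG2B and -0.12 to 0.072 for ATG7. For the difference of effects they were -0.043 to 0.056 for ATG12 and -0.15 to 0.048 for ATG7. Causes were not tested.

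With 3 libraries a group, an exact test cannot pass 0.05, and the calls rest on a spread pooled across genes. CPM of K562/IM was higher by library totals than by TMM for each member, as for WIPI1 with 32.1 against 29.3.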

Other observations

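The genes whose log2 CPM followed WIPI1 most closely over the 12 libraries, among 13994 others, were PDIA5, a protein disulfide isomerase (Pearson r = 0.996), SEMA4B (r = 0.985) and JDP2 (r = 0.983). The 4 groups hold 3 libraries each and stand apart from one another, so that these values describe likeness of the group levels and have no p. PDIA5 had group means of 34.0 CPM in K562, 17.1 CPM in K562+L, 33.8 CPM in K562/IM and 37.5 CPM in the group labelled K562/IM+L. JDP2, a repressor of the AP-1 family, had 3.47, 0.325, 6.37 and 8.51 CPM in the same order, and SEMA4B 32.1, 13.7, 34.9 and 42.2 CPM.

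For ATG2A the most alike were ZCCHC24 (r = 0.992), AGRN, which encodes the matrix protein agrin (r = 0.989), and ADAM8, a membrane protease (r = 0.982). AGRN had group means of 201 CPM in K562, 145 CPM in K562+L, 242 CPM in K562/IM and 454 CPM in the group labelled K562/IM+L. ADAM8 had 18.5, 8.996, 30.7 and 109 CPM in that order, a wider range than ATG2A, and ZCCHC24 17.4, 9.97, 20.5 and 39.8 CPM.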
